A study of Homo sapiens with 8 samples.

Results

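Interferon-stimulated genes are the genes that cells switch on when interferon reaches them. A set of 51 of them was followed across RNA-seq libraries of OVISE, a human cell line established from ovarian clear cell carcinoma. The members were given as a list of symbols, drawn up with earlier results of these data known, and each was found at 1 locus of the 27757 in the deposited expression table. Wild-type (SYK-WT) and SYK knockout cells (SYK-KO) were sequenced untreated and after 24 h with epidermal growth factor (EGF, the ligand of the receptor EGFR) at 50 ng/ml. SYK is a non-receptor tyrosine kinase, and the series is titled for its influence on the transcriptome downstream of EGFR. The knockout was made with a Cas9 nickase and paired guides against exon 2 of SYK, followed by puromycin selection and single-cell cloning. The labels state neither the number of SYK-KO clones in the libraries nor whether SYK-WT cells were cloned, so the effect of SYK loss and of the clone cannot be told apart. Each of the 4 groups had 2 libraries. Separate cultures are not mentioned, so the p-values measure the spread between these libraries only, which may be technical. In bulk RNA, fewer expressing cells and less RNA per cell cannot be told apart.

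Interferons of type I and type III bind receptors that activate the kinases JAK1 and TYK2. These phosphorylate STAT2, which acts with IRF9 in a complex that binds the interferon-stimulated response element (ISRE) in the promoters of target genes. The products sense viral nucleic acid, attach the ubiquitin-like protein ISG15 to other proteins, block viral entry or release, and arrest translation. Carcinoma cells can express part of the set without added interferon.

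The promoters of the members were rich in the letters of the ISRE core (GAAA, any 2 bases, then GAAA again), searched on both strands. RefSeq windows (GRCh38.p14) from 250 bases before to 50 bases after a gene's start were at hand for 43 of the 51 members. The core was found in a window of 27 of these members (62.8%), and in 4.38% of the 27305 genes with windows. The core of the gamma-activated site, TTCNNNGAA, which reads the same on both strands, was found in 13 members (30.2%) and in 9.38% of all genes. For 14 members there was more than 1 window, and any window counted. A match describes the letters only. The 160 bases before the start are printed for 8 members, to set genes with the largest genotype differences beside genes with small or no difference. They run 5′ to 3′ along the gene's own strand, with every whole ISRE core of the stretch in capitals (TTTC, any 2 bases and TTTC where the core lies on the opposite strand). The stretches are IFI27 at chr14:94110576-94110735 (plus strand), IFITM1 at chr11:313880-314039 (plus strand), IFI6 at chr1:27672193-27672352 (minus strand), IFIT3 at chr10:89327837-89327996 (plus strand), BST2 at chr19:17405631-17405790 (minus strand), ISG15 at chr1:1013337-1013496 (plus strand), UBE2L6 at chr11:57567936-57568095 (minus strand) and LGALS3BP at chr17:78979924-78980083 (minus strand).
IFI27: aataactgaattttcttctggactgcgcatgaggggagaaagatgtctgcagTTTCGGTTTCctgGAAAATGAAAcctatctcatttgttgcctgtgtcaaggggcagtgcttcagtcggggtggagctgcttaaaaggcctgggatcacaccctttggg
IFITM1: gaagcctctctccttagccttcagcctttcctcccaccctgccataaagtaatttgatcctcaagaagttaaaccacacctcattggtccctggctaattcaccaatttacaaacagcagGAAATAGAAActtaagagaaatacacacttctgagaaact
IFI6: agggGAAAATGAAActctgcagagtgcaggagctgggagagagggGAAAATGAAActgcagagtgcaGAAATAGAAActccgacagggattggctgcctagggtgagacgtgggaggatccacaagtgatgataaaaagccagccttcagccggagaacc
IFIT3: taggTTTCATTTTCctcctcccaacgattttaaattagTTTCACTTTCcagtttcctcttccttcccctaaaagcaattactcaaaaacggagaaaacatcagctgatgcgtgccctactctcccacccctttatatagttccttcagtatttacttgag
BST2: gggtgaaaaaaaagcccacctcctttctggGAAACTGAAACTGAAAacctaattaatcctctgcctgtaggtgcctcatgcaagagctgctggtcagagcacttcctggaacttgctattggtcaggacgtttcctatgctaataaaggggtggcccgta
ISG15: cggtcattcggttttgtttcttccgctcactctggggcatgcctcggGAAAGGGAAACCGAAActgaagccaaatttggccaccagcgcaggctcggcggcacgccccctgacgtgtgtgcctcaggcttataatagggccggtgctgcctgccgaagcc
UBE2L6: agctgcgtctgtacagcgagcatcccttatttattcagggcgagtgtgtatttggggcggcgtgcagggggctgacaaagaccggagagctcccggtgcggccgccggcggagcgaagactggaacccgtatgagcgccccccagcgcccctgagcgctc
LGALS3BP: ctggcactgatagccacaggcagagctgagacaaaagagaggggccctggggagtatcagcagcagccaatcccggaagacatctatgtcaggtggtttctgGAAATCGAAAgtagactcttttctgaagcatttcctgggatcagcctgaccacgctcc
IFI6 has 3 cores in its stretch, IFI27, IFIT3, BST2 and ISG15 have 2 each, and IFITM1 and LGALS3BP have 1. In BST2 and ISG15 the cores overlap, so the capitals form a single run. UBE2L6 has no core in the stretch.

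Expression is given in FPKM (fragments scaled by transcript length and library size), and differences are on the log2(FPKM + 1) scale, with their standard error (SE). The scale understates fold changes of genes near or below 1 FPKM. A gene was called when its limma p-value, adjusted by the Benjamini-Hochberg method over all 12112 loci that reached 1 FPKM in at least 2 libraries, was under 0.05. Of the 51 members 44 were tested. Where 4 values of a genotype are listed, the 2 untreated libraries come before the 2 with EGF, each pair in the order of its replicates. The targeted gene, SYK, read 4.91, 5.30, 3.88 and 3.62 FPKM in the SYK-WT libraries and 3.11, 3.43, 2.80 and 3.16 FPKM in the SYK-KO libraries. Its RNA was lower but present in the knockout. All 9 markers of epithelium and clear cell carcinoma were above 1 FPKM in at least some libraries, and they summed to between 7250 and 8207 FPKM in untreated SYK-WT, 9341 and 10206 in untreated SYK-KO, 13277 and 13527 in SYK-WT EGF and 13644 and 14976 in SYK-KO EGF libraries. Of the 9, NAPSA and CDH1 (E-cadherin) were lower in untreated SYK-KO cells by -1.65 and -1.07 (limma adjusted p = 8.37e-05 and 0.000189), and the keratins KRT8 and KRT18 were higher by 0.45 and 0.68 (0.00710 and 0.00166). With EGF, NAPSA and CDH1 were lower by -1.33 and -0.88 (limma adjusted p = 0.000213 and 0.000445) and KRT18 higher by 0.30 (0.0406). The part of these marker differences in the results on interferon-stimulated genes was not tested. All 6 fibroblast markers and all 4 endothelial markers were under 1 FPKM in every library, with COL3A1, DCN and LUM at 0. Of 8 haematopoietic markers 6 were under 1 FPKM throughout, including PTPRC. The 8 summed to between 17.2 and 20 FPKM untreated and 37.2 and 40.5 FPKM with EGF, most of it CD68, whose listed span it shares with other genes. Estimated depth ranged from 22800000 to 26900000 fragments, provided that FPKM was scaled by each library's own fragments, and 1 fragment on a transcript of 1000 bases was then worth 0.0372 to 0.0438 FPKM.

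The untreated SYK-WT pair stood apart from the other pairs, over all loci and for these genes. The median absolute difference between replicates over all loci was 0.150 in that pair and 0.0669, 0.0709 and 0.0828 in SYK-KO, SYK-WT EGF and SYK-KO EGF. In replicate 2 of SYK-WT, 37 of the 44 tested members were lower than in replicate 1 (84.1%, against 49.4% of all loci), with a median difference of -0.243 (0.00296 over all loci). The median absolute difference of the members was 0.258 in that pair and 0.0647, 0.0749 and 0.0879 in the others, in the same order. The comparisons with untreated SYK-WT cells are therefore given also without each library of the pair.

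**Figure D1:**
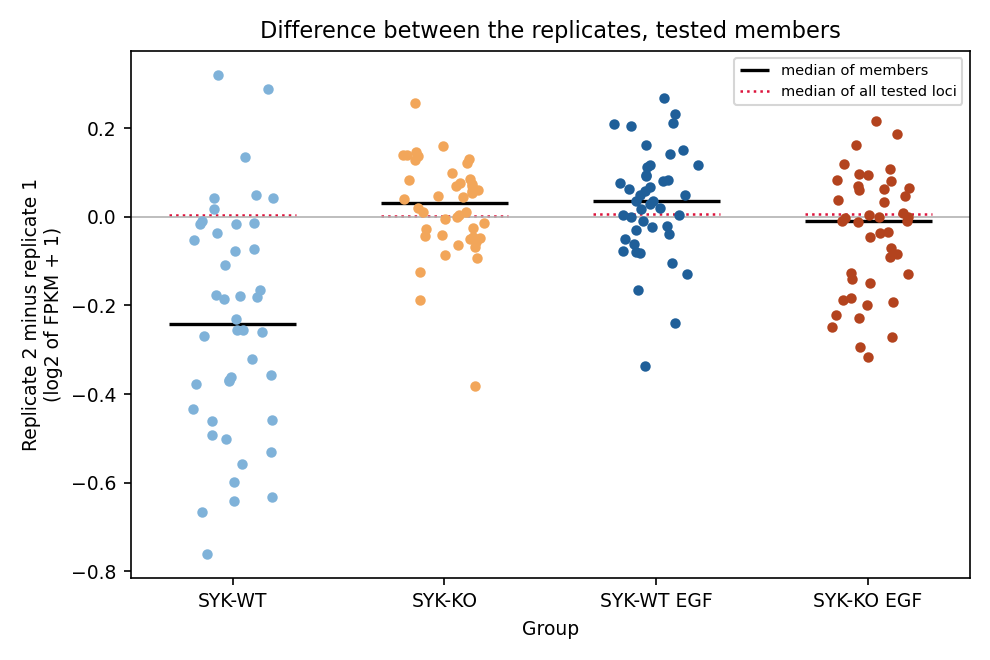
Difference between replicate 2 and replicate 1 (vertical axis, log2 of FPKM + 1) for the 44 tested members in each group, 1 point per member, with the median of the members (black) and of all tested loci (dotted). The SYK-WT median lies at -0.243, while the other groups' medians lie between -0.00866 and 0.0366.

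Of the tested members, more were higher than lower in SYK-KO cells, with and without EGF. In untreated cells 25 of the 44 tested members were higher in SYK-KO and 3 were lower (56.8% and 6.82%). Over all loci tested 20.3% were called higher and 20.2% lower in this comparison. With EGF 23 members were higher and 4 lower (52.3% and 9.09%), beside 21.1% and 22.5% of all loci. The median difference of the tested members was 0.48 untreated and 0.33 with EGF, beside -0.00806 and -0.0205 over all loci. IFI16, OASL and SAMD9 passed the filter only through their SYK-KO libraries, which by itself favours a higher value in SYK-KO cells. Among the 39 members at 1 FPKM or more in all 8 libraries, 21 were higher and 3 lower untreated, and 19 were higher and 4 lower with EGF. The share of all loci called under this stricter rule was not computed, so these counts have no matching background.

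The genotype comparisons use different libraries, but both set SYK-KO against SYK-WT cells and share an estimate of the spread, so they are not independent. In both, 21 members were higher, which is 84.0% of those called untreated and 91.3% of those called with EGF. Over all loci the shares were 76.1% and 73.4%. ISG15, ISG20, RIGI and USP18 were called higher untreated and not with EGF, and IFIT2 and TRIM22 with EGF and not untreated. The difference between these comparisons was called for none of the 6. STAT2, IRF7 and PLSCR1 were lower in both, and TRIM25 was called lower with EGF. Every SYK-KO library lay above every SYK-WT library for 24 of the 44 tested members (54.5%, against 18.7% of all loci tested) and below for 3 (6.82%, against 20.0%). The 24 include IFI16, OASL and SAMD9, whose passage through the filter by SYK-KO libraries alone by itself favours such a separation. Without SYK-WT replicate 1, 33 members were higher and 3 lower untreated (all loci 21.8% and 22.0%), with a median of 0.542. Without SYK-WT replicate 2, 25 were higher and 5 lower (all loci 24.9% and 24.1%), with a median of 0.408.

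**Figure D2:**
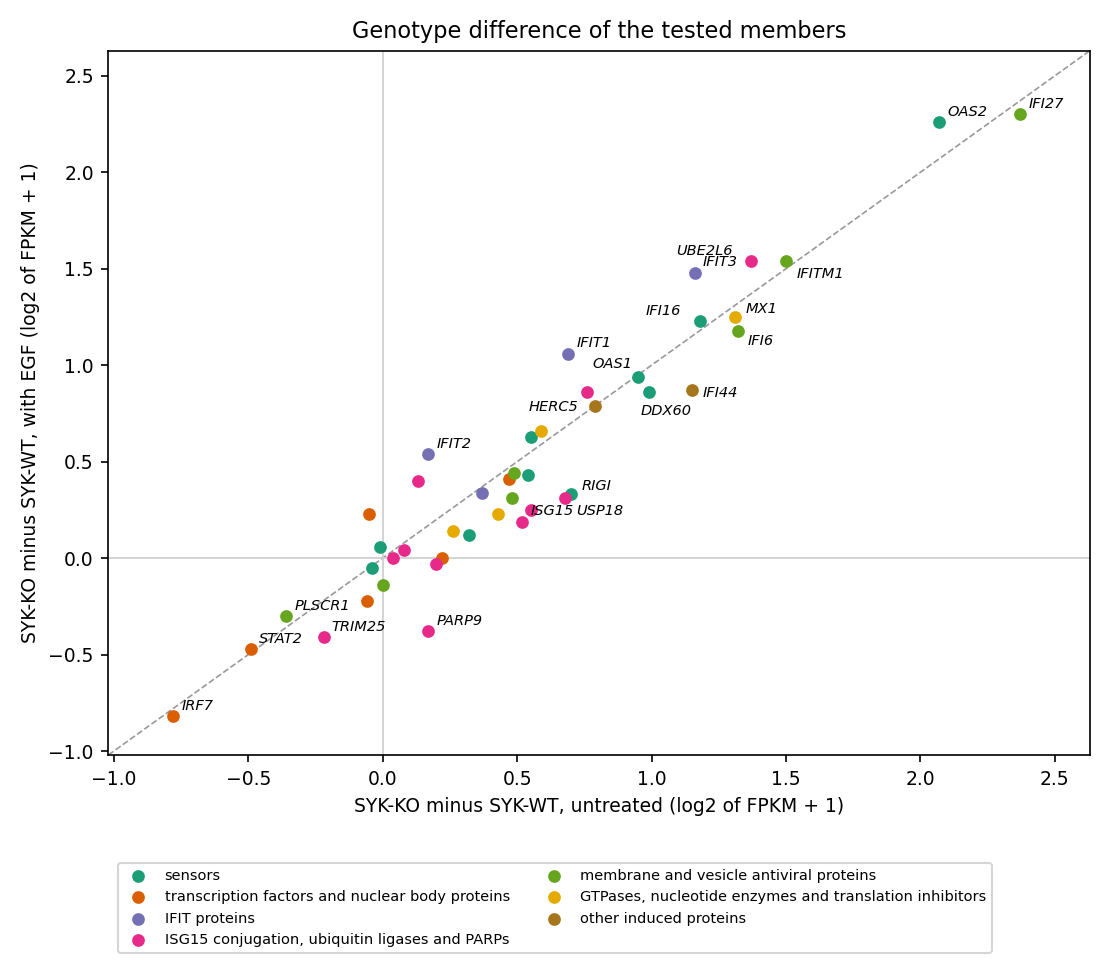
Difference between SYK-KO and SYK-WT cells for the 44 tested members, untreated (horizontal axis) and with EGF (vertical axis), both on the log2 scale of FPKM + 1 and coloured by role, with the line of equal differences dashed. OAS2 and IFI27 lie at the upper right, above 2 on both axes, and STAT2, IRF7 and PLSCR1 lie below 0 on both.

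Among the nucleic acid sensors, 7 of 10 were higher in untreated SYK-KO cells and 6 of 10 with EGF, and none was lower. Without IFI16 and OASL, which passed the filter only through SYK-KO libraries, the counts were 5 of 8 and 4 of 8, beside 20.3% and 21.1% of all loci called higher. OAS2 (hg19 chromosome 12, 113416274 to 113449528), an oligoadenylate synthetase that activates the antiviral nuclease RNase L, was at 1.77 and 1.47 FPKM in untreated and 1.42 and 1.37 FPKM in EGF-treated SYK-WT cells. In SYK-KO cells it was at 9.72 and 10.3 FPKM untreated and 10.3 and 10.8 FPKM with EGF, so the genotypes did not overlap. The difference was 2.07 ± 0.0822 (SE, n = 2 libraries per group, limma adjusted p = 5.87e-06) untreated and 2.26 ± 0.0822 (limma adjusted p = 3.16e-06) with EGF, and the ratio of the means was 6.17 and 7.52. The neighbouring OAS3 (113376238 to 113411055) was at 4.10, 3.73, 3.92 and 4.02 FPKM in the SYK-WT libraries and 5.89, 6.54, 6.43 and 6.93 FPKM in the SYK-KO libraries. Its differences were 0.55 ± 0.0820 and 0.63 ± 0.0820 (limma adjusted p = 0.00169 and 0.000956). OAS1 (113344582 to 113369995), the third synthetase of the cluster, was at 9.71, 6.57, 6.78 and 8.00 FPKM in the SYK-WT libraries and 15.9, 16.8, 15.0 and 15.1 FPKM in the SYK-KO libraries, again without overlap. OAS1 was higher by 0.95 ± 0.150 and 0.94 ± 0.150 (limma adjusted p = 0.00232 and 0.00230).

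IFI16 (chromosome 1, 158979682 to 159024945), a sensor of DNA in the nucleus, was barely expressed in SYK-WT cells, at 0.228, 0.219, 0.215 and 0.131 FPKM. The SYK-KO libraries held 1.77, 1.76, 1.95 and 1.58 FPKM. The difference was 1.18 ± 0.0959 untreated and 1.23 ± 0.0959 with EGF (limma adjusted p = 0.000133 and 0.000105), and all SYK-KO libraries were above all SYK-WT libraries. DDX60 (chromosome 4, 169137442 to 169239958), a helicase that promotes signalling by the RNA sensor RIG-I, was at 2.58, 1.65, 1.68 and 1.84 FPKM in the SYK-WT libraries and 4.91, 5.27, 4.35 and 3.66 FPKM in the SYK-KO libraries. DDX60 was higher by 0.99 ± 0.142 and 0.86 ± 0.142 (limma adjusted p = 0.00151 and 0.00264), again without overlap. OASL, a synthetase relative without the enzyme activity, was higher by 0.54 and 0.43 (limma adjusted p = 0.0109 and 0.0248). The untreated call of OASL ended without SYK-KO replicate 2 (limma adjusted p = 0.0728), and its call with EGF ended without SYK-WT EGF replicate 1 (0.0980), SYK-WT EGF replicate 2 (0.0975) or SYK-KO EGF replicate 1 (0.148). RIGI, which encodes RIG-I, was higher by 0.70 untreated (limma adjusted p = 0.0130) and stood at 0.33 with EGF (0.147). Its call ended without SYK-KO replicate 1 or 2 (limma adjusted p = 0.0720 and 0.0543) and when only the compared groups were fitted (0.0563). The sensors IFIH1, EIF2AK2 (the kinase PKR) and ADAR (an RNA editing enzyme) were not called in any comparison.

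The transcription factors did not share one direction. Of 6 tested, IRF9 was higher and STAT2 and IRF7 were lower in SYK-KO cells in both comparisons. These shares are 16.7% and 33.3%, beside 20.3% and 20.2% of all loci untreated and 21.1% and 22.5% with EGF. STAT2 (chromosome 12, 56735382 to 56754037), a subunit of the ISRE-binding complex, was at 29.3, 27.8, 28.4 and 30.4 FPKM in the SYK-WT libraries and 19.8, 20.1, 20.1 and 21.9 FPKM in the SYK-KO libraries. The groups were apart, with differences of -0.49 ± 0.0702 untreated and -0.47 ± 0.0702 with EGF (limma adjusted p = 0.00142 and 0.00173). IRF7 (chromosome 11, 612555 to 615999), the factor that drives interferon production after induction, was at 2.74, 3.67, 4.30 and 4.16 FPKM in the SYK-WT libraries and at 1.79, 1.14, 1.95 and 1.96 FPKM in the SYK-KO libraries. Its differences were -0.78 ± 0.144 and -0.82 ± 0.144 (limma adjusted p = 0.00450 and 0.00329), and every SYK-KO value was lower than every SYK-WT value. IRF9, the DNA-binding subunit of that complex, was higher by 0.47 untreated and 0.41 with EGF (limma adjusted p = 0.00958 and 0.0164), from 14.8 to 16.9 FPKM in the SYK-WT libraries and 19.7 to 24.0 FPKM in the SYK-KO libraries. The call of IRF9 ended untreated without SYK-KO replicate 1 (limma adjusted p = 0.0673) and with EGF without SYK-WT EGF replicate 1 (0.101) or SYK-KO EGF replicate 1 (0.104). IRF1 and the nuclear body proteins SP100 and SP110 were not called between genotypes.

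The IFIT proteins, which bind viral RNA and hold back its translation, lie side by side on chromosome 10 between 91061706 and 91180759. IFIT3 (91087576 to 91100725) was at 10.4, 5.73, 8.94 and 9.07 FPKM in the SYK-WT libraries and 18.6, 18.6, 27.1 and 26.9 FPKM in the SYK-KO libraries, with no overlap. It was higher by 1.16 ± 0.201 untreated and 1.48 ± 0.201 with EGF (limma adjusted p = 0.00333 and 0.00110). IFIT1 (91152303 to 91166244) was at 4.76, 2.63, 3.21 and 3.67 FPKM in the SYK-WT libraries and 6.48, 6.26, 8.74 and 7.78 FPKM in the SYK-KO libraries, also apart. Its differences were 0.69 ± 0.189 and 1.06 ± 0.189 (limma adjusted p = 0.0220 and 0.00354). The untreated call of IFIT1 ended without SYK-KO replicate 1 or 2 (limma adjusted p = 0.101 and 0.0795), with no filter (0.0621) and when only the compared groups were fitted (0.0734). IFIT2 (91061706 to 91069033) was at 3.58, 3.03, 2.25 and 2.23 FPKM in the SYK-WT libraries and 3.62, 4.09, 3.64 and 3.76 FPKM in the SYK-KO libraries. The untreated IFIT2 values almost met, with a difference of 0.17 ± 0.0908 (limma adjusted p = 0.158), while with EGF IFIT2 was higher by 0.54 ± 0.0908 (0.00289). IFIT5 was not called in any comparison, at 0.37 and 0.34 (limma adjusted p = 0.122 and 0.140).

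Of 11 members that attach ISG15 to proteins or are ubiquitin ligases or PARP proteins, 5 were higher untreated, all of them genes of the ISG15 system or its HERC relatives. With EGF 4 of the 11 were higher, UBE2L6, HERC5, HERC6 and the ubiquitin ligase TRIM22, and TRIM25 was lower. The shares called higher are 45.5% untreated and 36.4% with EGF, beside 20.3% and 21.1% of all loci. The share lower with EGF is 9.09%, beside 22.5%. UBE2L6 (chromosome 11, 57319128 to 57335803), the conjugating enzyme for ISG15, was at 2.72, 2.83, 1.87 and 1.75 FPKM in the SYK-WT libraries and 8.84, 8.65, 7.42 and 6.94 FPKM in the SYK-KO libraries. The gap was wide against the spread of each pair, with differences of 1.37 ± 0.0726 and 1.54 ± 0.0726 (limma adjusted p = 1.81e-05 and 1.00e-05). UBE2L6 is also the member shown above whose stretch has no ISRE core. ISG15 itself (chromosome 1, 948847 to 949919) was at 81.1, 80.3, 82.7 and 89.7 FPKM in the SYK-WT libraries and 117, 115, 103 and 94.3 FPKM in the SYK-KO libraries. It was higher by 0.52 ± 0.0694 untreated (limma adjusted p = 0.00111). With EGF its difference was 0.19 ± 0.0694 (limma adjusted p = 0.0530), although the genotypes did not overlap.

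HERC5 and HERC6 are neighbours on chromosome 4. HERC5 (89378268 to 89427319), the main ligase for ISG15 in human cells, was at 1.48, 0.931, 0.980 and 1.03 FPKM in the SYK-WT libraries and 2.95, 2.47, 2.92 and 2.36 FPKM in the SYK-KO libraries. HERC5 was higher by 0.76 ± 0.138 and 0.86 ± 0.138 (limma adjusted p = 0.00415 and 0.00232), with the genotypes apart. HERC6 (89299891 to 89364249), a relative of HERC5, was at 1.71, 1.79, 1.80 and 1.95 FPKM in the SYK-WT libraries and 2.92, 3.11, 2.45 and 2.37 FPKM in the SYK-KO libraries. Its difference was 0.55 ± 0.0772 untreated (limma adjusted p = 0.00140) and 0.25 ± 0.0772 with EGF (0.0332). The latter call ended without any of the SYK-KO, SYK-WT EGF or SYK-KO EGF libraries (limma adjusted p from 0.0607 to 0.169) and with no filter (0.0527). USP18, which removes ISG15 and restrains the type I receptor, was higher by 0.68 untreated (limma adjusted p = 0.00669) and at 0.31 with EGF (0.103). TRIM22, a ubiquitin ligase with antiviral activity, was called higher with EGF, by 0.40 (limma adjusted p = 0.0275), and this ended without SYK-WT EGF replicate 1 (0.167), SYK-KO EGF replicate 1 (0.106) or SYK-KO EGF replicate 2 (0.101). TRIM25, the ligase that activates RIG-I, differed by -0.22 untreated (limma adjusted p = 0.0663) and was lower by -0.41 with EGF (0.00691). Its locus also holds a microRNA gene, and the call with EGF ended without SYK-WT EGF replicate 1 (limma adjusted p = 0.0508) or SYK-KO EGF replicate 1 (0.0517). TRIM21, DTX3L, PARP9 and PARP14 were not called between genotypes. DTX3L and PARP9, which act as a pair, are listed with the same span, and their overlapping reads cannot be assigned with certainty.

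Membrane and vesicle proteins held the most abundant members, and 5 of the 7 tested were higher and 1 lower in SYK-KO cells in both comparisons. These shares are 71.4% and 14.3%, beside 20.3% and 20.2% of all loci untreated and 21.1% and 22.5% with EGF. IFI27 (chromosome 14, 94577079 to 94583036), a small membrane protein of mitochondria, was at 92.3, 113, 97.4 and 76.9 FPKM in the SYK-WT libraries and 549, 515, 423 and 437 FPKM in the SYK-KO libraries. The lowest SYK-KO library stood far above the highest SYK-WT library, and the ratio of the means was 5.17 untreated and 4.93 with EGF. The difference was 2.37 ± 0.127 and 2.30 ± 0.127 (limma adjusted p = 1.89e-05 and 2.20e-05), the largest of the tested members in both comparisons on this scale. With 0.1 in place of 1 added to the FPKM, OAS2 (2.56 and 2.83) and IFI16 (2.53 and 2.78) had larger differences than IFI27 (2.38 and 2.31). IFI6 (chromosome 1, 27992572 to 27998724), a relative that protects the endoplasmic reticulum from flaviviruses, was at 58.9, 39.7, 40.8 and 34.4 FPKM in the SYK-WT libraries and 119, 125, 93.2 and 79.4 FPKM in the SYK-KO libraries. Its differences were 1.32 ± 0.173 and 1.18 ± 0.173 (limma adjusted p = 0.00103 and 0.00158), with the genotypes apart. BST2 (chromosome 19, 17513748 to 17516457), tetherin, which holds budding virions on the cell surface, was at 251, 248, 245 and 251 FPKM in the SYK-WT libraries and 345, 355, 332 and 340 FPKM in the SYK-KO libraries. The fold was small, but the pairs were tight, and BST2 was higher by 0.49 ± 0.0559 and 0.44 ± 0.0559 (limma adjusted p = 0.000566 and 0.000860).

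The IFITM genes, whose products block fusion of enveloped viruses with the cell, lie together on chromosome 11. IFITM1 (313991 to 315272) was at 24.9, 20.7, 19.5 and 23.7 FPKM in the SYK-WT libraries and 66.0, 66.2, 65.4 and 63.3 FPKM in the SYK-KO libraries. The SYK-KO values were nearly level, and the difference was 1.50 ± 0.110 and 1.54 ± 0.110 (limma adjusted p = 7.76e-05 and 7.36e-05). IFITM3 (319673 to 320914) was more abundant and differed less, at 145, 150, 171 and 177 FPKM in the SYK-WT libraries and 210, 203, 226 and 205 FPKM in the SYK-KO libraries. It was higher by 0.48 ± 0.0672 and 0.31 ± 0.0672 (limma adjusted p = 0.00133 and 0.00811), without overlap. The IFITM3 call with EGF ended without SYK-WT EGF replicate 1 (limma adjusted p = 0.0597) or SYK-KO EGF replicate 1 (0.0639). IFITM2 stayed at 0.324 to 1.06 FPKM and was not tested. The IFITM genes are close copies of each other, so the split of reads between them is uncertain. PLSCR1, a scramblase of membrane lipids that also binds DNA, was lower by -0.36 untreated and -0.30 with EGF (limma adjusted p = 0.00783 and 0.0149). The PLSCR1 calls ended without SYK-KO replicate 2 (0.0596) in the first comparison, and in the second without SYK-WT EGF replicate 1 (0.0827), SYK-WT EGF replicate 2 (0.0684) or SYK-KO EGF replicate 2 (0.0946). LGALS3BP, a secreted glycoprotein, was not called between genotypes, at 0.00 and -0.14 (limma adjusted p = 0.990 and 0.0893).

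Of the GTPases, nucleotide enzymes and translation inhibitors, 3 of 4 tested were higher untreated and 2 of 4 with EGF. Without SAMD9, which passed the filter only through SYK-KO libraries, the counts were 2 of 3 and 1 of 3, beside 20.3% and 21.1% of all loci. MX1 (chromosome 21, 42792485 to 42831141), the GTPase that traps viral nucleocapsids, was at 2.07, 1.38, 1.52 and 1.39 FPKM in the SYK-WT libraries and 5.43, 5.99, 5.04 and 4.67 FPKM in the SYK-KO libraries. MX1 was higher by 1.31 ± 0.123 and 1.25 ± 0.123 (limma adjusted p = 0.000234 and 0.000285), with no overlap. SAMD9 (chromosome 7, 92728826 to 92747336), an antiviral inhibitor of translation, was at 0.818, 0.518, 0.793 and 0.693 FPKM in the SYK-WT libraries and 1.38, 1.62, 1.68 and 1.81 FPKM in the SYK-KO libraries. Its differences were 0.59 ± 0.110 and 0.66 ± 0.110 (limma adjusted p = 0.00464 and 0.00274). ISG20 (chromosome 15, 89178868 to 89199575), an exonuclease that degrades viral RNA, was at 8.58, 9.51, 12.8 and 11.3 FPKM in the SYK-WT libraries and 12.3, 12.8, 14.5 and 14.1 FPKM in the SYK-KO libraries. Untreated SYK-KO cells were higher by 0.43 ± 0.0816 (limma adjusted p = 0.00480), and with EGF the difference was 0.23 ± 0.0816 (0.0544). RSAD2 (viperin, which makes a chain-terminating nucleotide) was not called in any comparison, at 0.708 to 1.43 FPKM.

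IFI35 and IFI44, of the remaining role, were higher in both comparisons. IFI35 (chromosome 17, 41158742 to 41166476) was at 17, 14.9, 13.3 and 13.8 FPKM in the SYK-WT libraries and 27.7, 28.9, 24.3 and 24.1 FPKM in the SYK-KO libraries, apart in all of them. It differed by 0.79 ± 0.0746 in each comparison (limma adjusted p = 0.000234 and 0.000235). IFI44 (chromosome 1, 79115474 to 79129763) was at 2.22, 1.34, 1.59 and 1.74 FPKM in the SYK-WT libraries and 4.77, 5.38, 4.42 and 3.35 FPKM in the SYK-KO libraries, also apart. Its differences were 1.15 ± 0.163 and 0.87 ± 0.163 (limma adjusted p = 0.00141 and 0.00439).

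**Figure D3:**
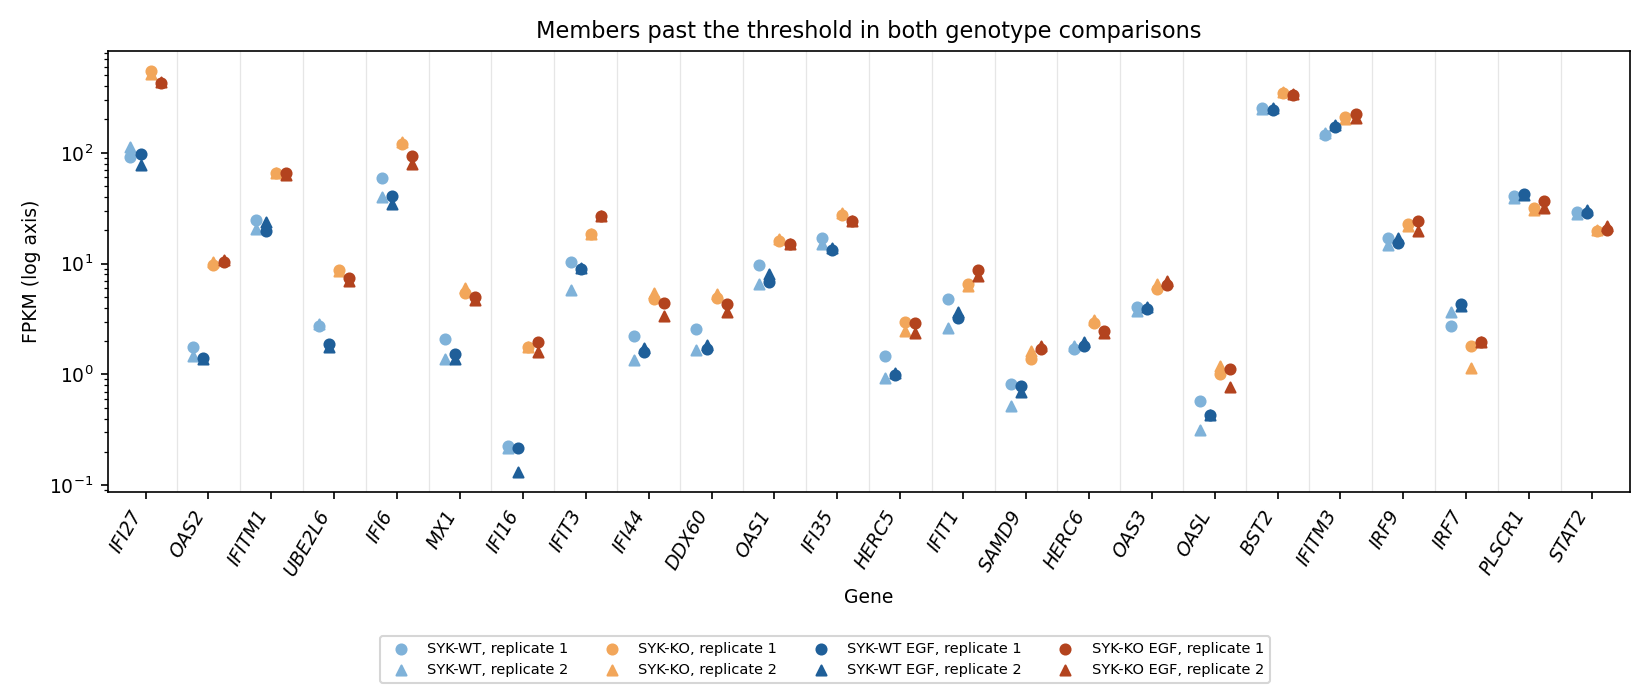
FPKM (log axis) in each of the 8 libraries for the 21 members that were higher and the 3 that were lower in SYK-KO cells in both comparisons, with colour for group and marker shape for replicate. SYK-KO libraries lie above SYK-WT libraries in the first 21 genes, from IFI27 (423 to 549 against 76.9 to 113) to IRF9, and below them in IRF7, PLSCR1 and STAT2.

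The 7 members that did not pass the filter were IFITM2, MX2, CMPK2, SAMD9L, IFI44L, XAF1 and EPSTI1. With no filter, and so with another set of loci (12.7% called higher untreated and 13.5% with EGF), IFI44L differed by 0.61 and 0.51 (limma adjusted p = 0.00608 and 0.0106) and XAF1 by 0.57 and 0.49 (0.00411 and 0.00645). IFI44L read 0.115 to 0.446 FPKM in the SYK-WT libraries and 0.583 to 1.08 FPKM in the SYK-KO libraries. XAF1 read 0.0923 to 0.215 FPKM and 0.515 to 0.874 FPKM. SAMD9L differed by 0.23 and 0.27 (limma adjusted p = 0.0210 and 0.0125) at a highest value of 0.328 FPKM. CMPK2 was called with EGF, at 0.35 (limma adjusted p = 0.0207), and EPSTI1 was lower with EGF by -0.18 (0.0176; 12.9% of loci were called lower). MX2 was at 0 to 0.0403 FPKM, which is about the worth of 1 fragment per 1000 bases.

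The ISRE core was found among members with and without a genotype difference. Of the 19 members that were higher in both comparisons and have a window, 13 hold an ISRE core, and of the 24 other members with a window 14 do. The others are not all without a genotype difference. ISG15 and ISG20, called higher untreated, and PLSCR1, lower in both comparisons, are among them and hold a core. IFI16, UBE2L6, OAS1, IRF9, IFI35 and HERC6 were higher in both with no core in the window, and IFIH1 and IFIT5 hold 3 cores and were called in no comparison. At least 2 cores in a window were found in 15 members.

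In SYK-WT cells EGF moved about the same share of the members as of all loci. Of the 44, 7 were called higher (15.9%) and 4 lower (9.09%), beside 14.7% and 12.1% of all loci, and the median was 0.02. RIGI read 8.56 and 5.31 FPKM untreated and 12.8 and 13.7 FPKM with EGF, and rose by 0.88 ± 0.167 (limma adjusted p = 0.00841). This call ended without SYK-WT EGF replicate 2 (limma adjusted p = 0.0609) and when only the compared groups were fitted (0.0506). SP100, SP110, TRIM25, PARP9, IFITM3 and ISG20 were higher by 0.24 to 0.54, and each of these calls ended when a library was left out, for ISG20 without SYK-WT EGF replicate 1 (limma adjusted p = 0.101). UBE2L6 was lower with EGF by -0.43 ± 0.0726 (limma adjusted p = 0.00537), against the direction of its genotype difference, and kept its call in each alternative run. IFIT2 was lower by -0.40 ± 0.0908 (limma adjusted p = 0.0156), IRF1, an activator of interferon genes, by -0.38 (0.0199) and TRIM22 by -0.42 (0.0365). Those calls ended without SYK-WT EGF replicate 1 (limma adjusted p = 0.0833, 0.128 and 0.204). The count itself depends on the libraries. Without SYK-WT replicate 1 there were 15 higher and 4 lower members (all loci 21.9% and 20.3%), without SYK-WT replicate 2 there were 7 and 10 (15.8% and 11.2%), without SYK-WT EGF replicate 1 there were 1 and 1 (6.15% and 4.21%), and without SYK-WT EGF replicate 2 there were 1 and 2 (6.02% and 4.59%). The share of all loci called thus moved as well.

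In SYK-KO cells EGF left 0 of 44 members called higher and 1 lower by limma, beside 6.67% and 5.13% of all loci. The lower member was LGALS3BP, at 130 and 131 FPKM untreated and 108 and 113 FPKM with EGF, by -0.24 ± 0.0609 (limma adjusted p = 0.0439). The call ended without any of the SYK-KO, SYK-WT EGF or SYK-KO EGF libraries (limma adjusted p from 0.0858 to 0.235) and with no trend (0.0653), and without either SYK-WT library 5 members were higher and 6 lower (all loci 13.2% and 11.4%). IFIT3 had the largest positive difference, 0.51 ± 0.201 (limma adjusted p = 0.146), and IFI6 the largest negative one, -0.50 ± 0.173 (0.107).

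No member differed in its EGF response between the genotypes by limma, where 1 locus of 12112 was called (0.00826%). The smallest p-values of the members were those of ISG15, IFIT2 and HERC6, and none of them was called. ISG15 stood at -0.32 ± 0.0982 (limma adjusted p = 0.435), IFIT2 at 0.36 ± 0.128 (0.494) and HERC6 at -0.30 ± 0.109 (0.506). The outcome turned on the SYK-WT pair. Without SYK-WT replicate 1, IFIH1, USP18, PARP14, PARP9 and RIGI were called with a lower response in SYK-KO cells (differences from -0.46 to -0.86, limma adjusted p from 0.00582 to 0.0405, all loci 3.27% lower and 3.89% higher). Without SYK-WT replicate 2, IFIT3 was called with a higher response (0.70, limma adjusted p = 0.0230, all loci 0.132% higher and 0.297% lower).

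**Figure D4:**
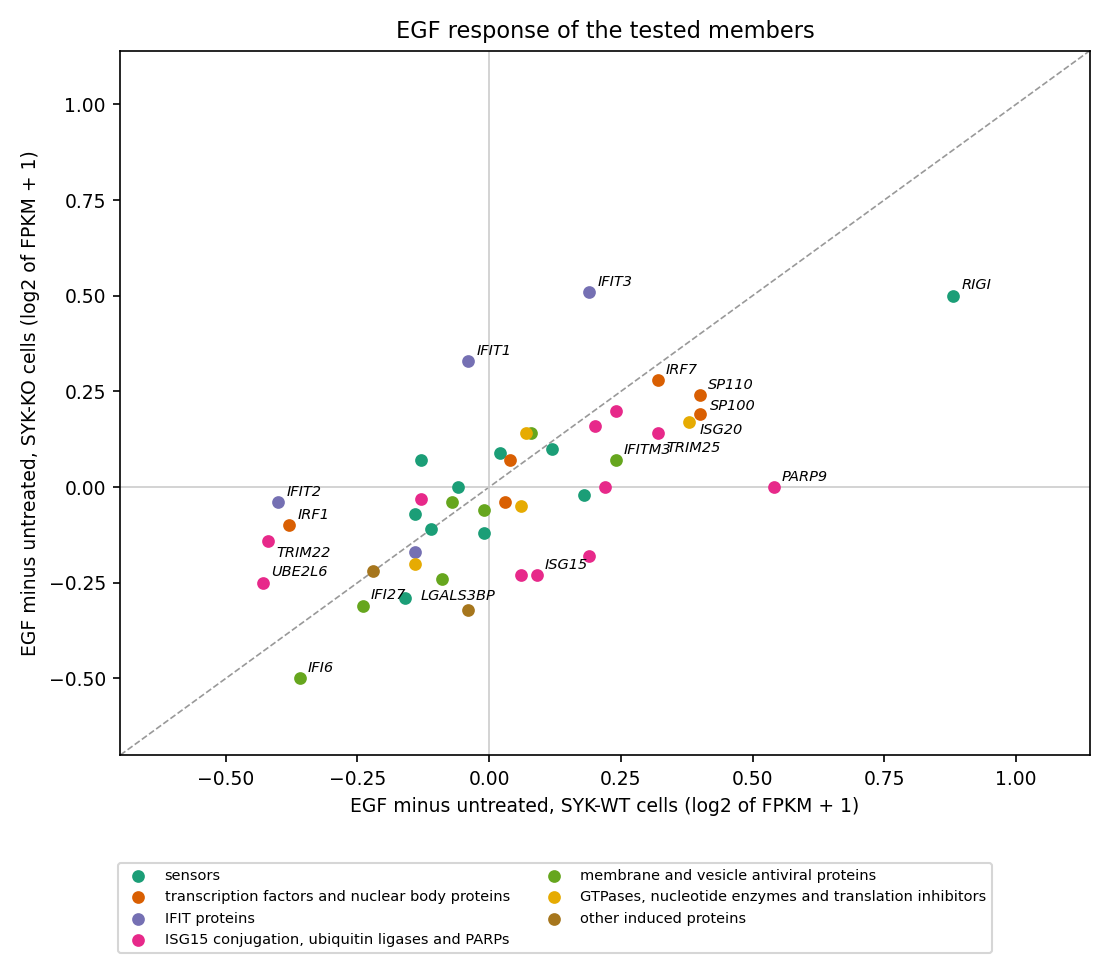
EGF response of the 44 tested members in SYK-WT cells (horizontal axis) and SYK-KO cells (vertical axis), on the log2 scale of FPKM + 1 and coloured by role, with the line of equal responses dashed. Most members lie close to 0 on both axes, and RIGI lies furthest to the right, at 0.88 and 0.50.

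Transcripts of the interferon genes that were looked at were near or at 0. Of 9 interferon genes on a list for this purpose, with IFNA1 the only alpha gene, none was tested. IFNK, IFNW1 and IFNG were listed at 0 in all libraries, and the highest value of any was 0.397 FPKM, for IFNL1 in an untreated SYK-KO library. All 11 receptors and JAK-STAT kinases and factors on a list were tested, JAK2 through its EGF libraries alone, as it was at 0.480 to 0.891 FPKM untreated. Untreated, 1 of 11 was higher in SYK-KO cells and 1 lower (all loci 20.3% and 20.2%), and with EGF 5 were higher and 3 lower (all loci 21.1% and 22.5%). IFNGR2, a subunit of the type II receptor whose listed span overlaps TMEM50B, was at 13.4, 14.0, 14.4 and 14.6 FPKM in the SYK-WT libraries and 17.6, 15.8, 21.0 and 22.1 FPKM in the SYK-KO libraries, higher by 0.27 ± 0.0724 and 0.55 ± 0.0724 (limma adjusted p = 0.0213 and 0.00101). Its untreated call ended without SYK-KO replicate 1 (difference 0.19). It also ended when only the compared groups were fitted (limma adjusted p = 0.0822) and with library quality weights (0.0805). IFNAR2, of the type I receptor, and IL10RB, of the type III receptor, were higher with EGF, by 0.57 and 0.46 (limma adjusted p = 0.00506 and 0.00595), the latter not without SYK-WT EGF replicate 2 (0.0514). Untreated, IFNAR2 and IL10RB stood at 0.23 and 0.25 (limma adjusted p = 0.132 and 0.0638), and their EGF responses were not called different between the genotypes (0.581 and 0.682). STAT3 was lower by -0.23 and -0.40 (limma adjusted p = 0.0220 and 0.00208). The untreated STAT3 call ended without SYK-KO replicate 1 or 2 (differences of -0.23 and -0.22). It also ended when only the compared groups were fitted (limma adjusted p = 0.0698) and with library quality weights (0.0737).

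Among 13 genes that sense nucleic acid upstream of interferon, 10 were tested, and in both genotype comparisons 2 were higher (TLR3 and TRAF3) and 3 lower (STING1, MAVS and IRF3) in SYK-KO cells, near the shares of all loci. STING1 passed the filter only through its SYK-WT libraries, which by itself favours a lower value in SYK-KO cells, and without it 2 of 9 were lower. STING1, the adaptor that signals from cytosolic DNA, was at 3.23, 5.15, 4.29 and 3.93 FPKM in the SYK-WT libraries and 0.173, 0.297, 0.411 and 0.298 FPKM in the SYK-KO libraries. The genotypes were far apart, with differences of -2.05 ± 0.164 and -1.92 ± 0.164 (limma adjusted p = 0.000123 and 0.000154). IRF3, the factor that STING1 and MAVS activate, shares its listed span with BCL2L12 and was at 95.1, 99.7, 115 and 116 FPKM in the SYK-WT libraries and 82.7, 76.2, 87.4 and 85.6 FPKM in the SYK-KO libraries. IRF3 was lower by -0.29 ± 0.0637 and -0.41 ± 0.0637 (limma adjusted p = 0.00904 and 0.00195). The first call ended without SYK-KO replicate 2 (difference -0.23) and when only the compared groups were fitted (limma adjusted p = 0.0546). TRAF3, a ubiquitin ligase of this pathway, was higher by 0.55 and 0.56 (limma adjusted p = 0.00533 and 0.00460). TICAM1, the adaptor of TLR3, rose with EGF in SYK-WT cells by 0.81 (limma adjusted p = 0.000381) and in SYK-KO cells by 0.53 (0.00404, and 0.0550 without SYK-KO replicate 2).

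**Figure D5:**
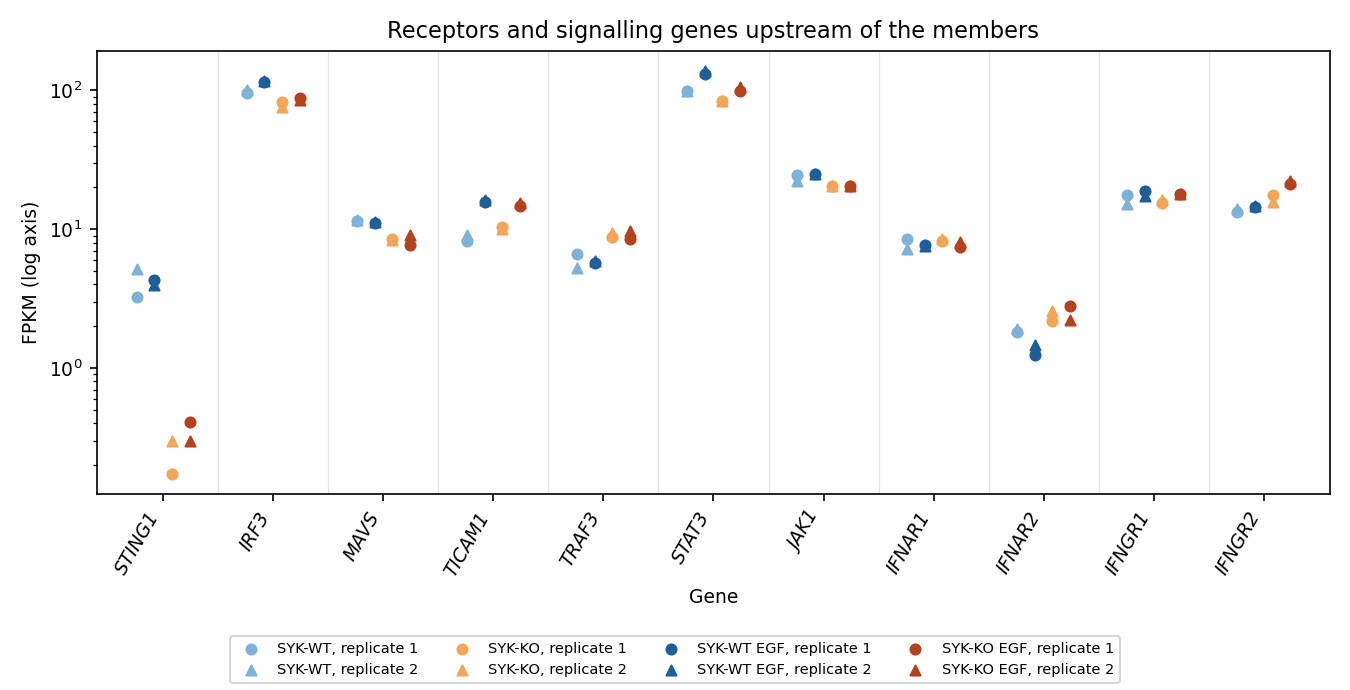
FPKM (log axis) of 11 receptor, signalling and sensing genes in each of the 8 libraries, with colour for group and marker shape for replicate. STING1 lies at 3.23 to 5.15 in SYK-WT and 0.173 to 0.411 in SYK-KO libraries, with no overlap.

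Of 9 inhibitors of interferon signalling, 1 was higher and 2 lower in untreated SYK-KO cells, and 2 were higher and 3 lower with EGF (all loci 20.3% and 20.2%, then 21.1% and 22.5%). PTPN1, a phosphatase that acts on JAK kinases, was at 24.4, 25.4, 26.3 and 25.5 FPKM in the SYK-WT libraries and 17.8, 18, 19.4 and 19.0 FPKM in the SYK-KO libraries, lower by -0.45 and -0.41 (limma adjusted p = 0.00104 and 0.00152). PIAS1, an inhibitor of STAT signalling whose listed span overlaps CALML4, was lower by -0.52 and -0.40 (limma adjusted p = 0.00309 and 0.00910), and its call with EGF ended without SYK-WT EGF replicate 2 (0.0733) or SYK-KO EGF replicate 2 (0.0621). SOCS1, which blocks JAK kinases, was higher with EGF by 0.63 (limma adjusted p = 0.00291) and at 0.26 untreated (0.0919). SOCS3 fell with EGF in SYK-KO cells by -0.39 (limma adjusted p = 0.00594), not without SYK-KO replicate 1 (0.0608), SYK-KO replicate 2 (0.0542) or the first SYK-KO EGF library (0.0616).

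A further list of 30 interferon-induced genes outside the 51 had 22 tested. Untreated, 7 were higher in SYK-KO cells and 4 lower (31.8% and 18.2%), and with EGF 6 were higher and 4 lower (27.3% and 18.2%), beside 20.3% and 20.2%, then 21.1% and 22.5%, of all loci. RNF213, a large ubiquitin ligase whose listed span overlaps ENDOV and other genes, was at 8.53, 8.79, 7.28 and 7.58 FPKM in the SYK-WT libraries and 3.54, 3.94, 3.67 and 4.12 FPKM in the SYK-KO libraries, lower by -1.03 and -0.79 (limma adjusted p = 0.000110 and 0.000340). PARP12 was higher by 0.48 and 0.66 (limma adjusted p = 0.00290 and 0.000727). HELZ2, a helicase, was lower by -0.49 and -0.38 (limma adjusted p = 0.00100 and 0.00289). PARP10 was higher by 0.22 and 0.43 (limma adjusted p = 0.0470 and 0.00320), and its untreated call ended in 7 of the 8 fits that left out a library, the exception being SYK-WT replicate 2. The median of the tested genes of this list was 0.10 and 0.09, lower than the medians of 0.48 and 0.33 of the 44 members.

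In the authors' deposited table, q was under 0.05 for 27 members higher and 2 lower in untreated SYK-KO cells, of 48 with a test (11.5% and 9.93% of all loci with a test there). Of these, 25 and 2 were also called by limma in the same direction. With EGF the authors' deposited table has 23 members higher and 3 lower (13.5% and 10.4% of loci), of which 19 and 3 were shared with limma. For EGF in SYK-WT cells it has RIGI higher and IFIT2 and TRIM22 lower, of 45 members with a test (7.13% and 7.87% of loci).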

How the data were processed

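The deposited FPKM table holds a value per library and locus. Per the submitters' processing notes it was made with TopHat, Cufflinks and Cuffdiff 2.2.1.3 on hg19. Library scaling and read strand were not given in the sources used here. The authors' deposited table also holds p-values and q-values of its own comparisons, of which only the q-values were used. Symbols were assigned to 27541 of 27757 loci (99.2%) through RefSeq (27222) and GENCODE 29 (319). The 12112 loci that reached 1 FPKM in 2 or more libraries were fitted as log2(FPKM + 1) in limma 3.58.1 (R 4.3.3). The model had a mean for each group, a variance trend, 4 residual degrees of freedom and 3.87 prior ones. Tests were two-sided, with Benjamini-Hochberg adjustment per contrast and a threshold of 0.05. The fit was tested on simulated data. FPKM are not counts, so no count model was used. Depth was estimated from the steps of low values at 1109 loci.

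The members and the gene lists were chosen with earlier results of these data known. Values in every library are given for the 24 members with the smallest adjusted p in any contrast, and for up to 4 genes per further list. The other called members and the members that did not pass the filter were named after their values were seen. Groups and replicate numbers come from the sample titles.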

Additional observations from a re-analysis of the deposited data

How the results depend on the processing

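Of the 103 calls of named genes in the 5 contrasts, 66 held in every alternative that tested the gene, and 0 reversed. The EGF difference of IFIT1 in SYK-WT cells, -0.04 and not called, was called at 0.29 without SYK-WT replicate 1 and at -0.38 when the other library of the pair was left out. The genotype medians stayed between 0.408 and 0.542 untreated and between 0.27 and 0.418 with EGF. That of EGF in SYK-KO cells stayed between -0.038 and 0.004. Leaving out the first or the second untreated SYK-WT library moved the median of EGF in SYK-WT cells from 0.024 to 0.114 or -0.089, and that of the difference of the responses from -0.047 to -0.163 or 0.086. With no library of the compared groups left out, 19 to 30 members were called between genotypes untreated (28 in the report), beside 24.6% to 44.1% of all loci. With EGF 19 to 36 were called (27 in the report), beside 26.4% to 56.4% of all loci. The low ends came with a filter of 5 FPKM, which leaves 32 members. The 36 came with library quality weights, where 55.8% of all loci were called. EGF counts were unstable, and so were the shares of all loci called, given in brackets. For EGF in SYK-WT cells 11 members were called (26.7%), but 6 with no filter (13.0%), 1 with only the compared groups fitted (10.4%), 5 with library quality weights (15.5%), and 2 to 19 with a library left out (10.4% to 42.2%). For EGF in SYK-KO cells 1 was called (11.8%), but 10 with only the compared groups (21.8%), 0 with no trend (11.4%), 9 with quality weights (25.0%), and 0 to 11 with a library left out (2.63% to 24.6%). The difference of the responses had 0 calls, and 0 to 5 with a library left out (0.00% to 7.16%). The cause was not tested. With the replicate number as a block, 29 members were called untreated and 28 with EGF, 10 for EGF in SYK-WT cells (PARP9 lost, limma adjusted p = 0.0520), 1 for EGF in SYK-KO cells and 0 for the difference. Same-numbered libraries did not pair (correlation of deviations from -0.38 to 0.27). Restricting the count to members at 1 FPKM in every library was chosen after seeing the data. A fit without 1 library of a pair assumes that the lone library varies like the other groups.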
